A study of Mus musculus with 85 samples.

Results

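Methionine restriction in control male mice was examined by comparing 10 male C57BL/6J mice given methionine restricted feed (MWTMR) with 11 male C57BL/6J mice given standard feed (MWT). The members were the libraries whose titles begin with these group names, 21 of the 85 hippocampal RNA libraries of the series. All mice were 8 months old, and neither group carried a transgene. Feed was the factor that separated the groups, while the labels state neither its methionine content nor how long it was fed. Other groups served for comparison. They were female C57BL/6J mice on standard (FWT, n = 10) or restricted feed (FWTMR, n = 10) and male APPswePSEN1dE9 mice, a transgenic amyloid model labelled AD. These males were on standard (MAD, n = 11) or restricted feed (MADMR, n = 11). Female AD mice on standard (FAD, n = 11) or restricted feed (FADMR, n = 11) entered the fit only. All 85 libraries were fitted together, so the other groups also enter the estimate of spread. Each sample was labelled as hippocampus and total RNA, and p-values measure the spread between these samples.

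Methionine is an essential amino acid that starts every protein and, as S-adenosylmethionine, donates methyl groups to DNA, RNA and histones. Its sulfur passes through homocysteine and the transsulfuration enzymes to cysteine, glutathione, hydrogen sulfide and taurine. When an amino acid runs short, the kinase GCN2, encoded by Eif2ak4, phosphorylates the initiation factor eIF2, and translation of the factor ATF4 increases. ATF4 raises amino acid transporters and synthetic enzymes such as asparagine synthetase. In liver, restriction of methionine is known for inducing the hormone FGF21. The hippocampus is a brain region of excitatory pyramidal and granule neurons that serves memory.

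The promoters of ATF4 target genes carry a composite element read by ATF4 and C/EBP proteins, and examples are shown because these genes are the best known readout of amino acid shortage. The RefSeq windows of GRCm38.p6 run from 250 bases before to 50 bases after an annotated start site, and a gene can have several. The element was searched as the letters TGATGNAA on both strands. These letters stood in 10 of the 34 windows of ATF4-list genes (29.41%), each of a different gene, and in 1304 of all 32851 windows (3.969%). Asns, asparagine synthetase, had 1 match and Slc7a11, the cystine transporter, had 2 matches facing each other. The windows shown are chr6:7693160-7693459 (minus strand) for Asns and chr3:50443564-50443863 (minus strand) for Slc7a11, with the matched letters in capitals. Pde10a, a phosphodiesterase gene among those of smallest p, has 2 windows, both inside the span of the gene and both without a match. The window chr17:8801495-8801794 (plus strand), with 71.33% G or C, is shown for contrast.
Asns: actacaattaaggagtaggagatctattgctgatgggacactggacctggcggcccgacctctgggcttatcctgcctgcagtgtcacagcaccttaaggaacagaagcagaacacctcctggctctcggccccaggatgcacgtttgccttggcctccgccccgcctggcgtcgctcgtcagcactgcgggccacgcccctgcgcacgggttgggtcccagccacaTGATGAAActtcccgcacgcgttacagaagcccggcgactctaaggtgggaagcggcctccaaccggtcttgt
Slc7a11: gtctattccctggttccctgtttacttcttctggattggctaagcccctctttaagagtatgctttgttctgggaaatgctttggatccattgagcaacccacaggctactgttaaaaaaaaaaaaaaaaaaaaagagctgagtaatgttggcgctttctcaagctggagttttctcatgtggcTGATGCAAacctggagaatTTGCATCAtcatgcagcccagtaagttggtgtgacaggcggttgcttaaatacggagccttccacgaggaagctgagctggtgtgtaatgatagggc
Pde10a: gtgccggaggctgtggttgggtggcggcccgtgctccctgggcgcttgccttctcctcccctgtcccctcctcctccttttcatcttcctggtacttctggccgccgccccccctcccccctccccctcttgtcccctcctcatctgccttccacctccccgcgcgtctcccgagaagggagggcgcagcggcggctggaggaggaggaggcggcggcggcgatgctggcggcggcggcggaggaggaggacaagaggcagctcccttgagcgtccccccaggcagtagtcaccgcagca
A match describes letters in a window, and the absence of one says only that these letters are not there.

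Levels are given as FPKM, fragments normalised to transcript length and to the mapped fragments of the library, divided by a scale factor for each library. Differences are on the log2(FPKM + 1) scale, MWTMR minus MWT, with a standard error. The 21 libraries each summed to between 942337 and 1035750 FPKM and held 17737 to 19576 rows at 1 FPKM or above. Read depth is unknown, because the values are not counts. Xist, the marker of female cells, stood at 0.298 ± 0.21 FPKM in MWT (SD, n = 11) and 0.320 ± 0.14 in MWTMR (SD, n = 10), and the Y-linked Ddx3y locus at 406 and 405. The Prnp locus, whose promoter drives the transgenes of the APPswePSEN1dE9 line, had means of 359 and 365. Hippocampal subfield markers were present in both groups, with Prox1 of granule neurons at 8.60 ± 6.1 and 11.4 ± 6.1 FPKM and Fibcd1 of CA1 neurons at 119 ± 31 and 107 ± 41.

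No gene differed between MWTMR and MWT at an adjusted p under 0.05 among 21286 loci tested (0%), by limma with Benjamini-Hochberg adjustment. The smallest adjusted p was 0.0901, for Riok3. Fitted by limma on MWT and MWTMR alone, the smallest adjusted p was 0.128. At an unadjusted p under 0.05, 891 loci were higher in MWTMR (4.19%) and 560 were lower (2.63%). At no locus did the 10 MWTMR libraries stand apart from all 11 MWT libraries in either direction (0%). The count depended on the weight given to single libraries. With weights estimated for each library, 228 loci were called (172 higher and 56 lower), and MWT replicate 1 had the lowest weight of the 21 libraries. Without MWT replicate 1, 66 loci were called higher (0.31%) and 10 lower (0.047%), 76 in all. That library had the highest MWT value of Riok3 and of Pde10a, so leaving it out could only widen their differences. Leaving out MWTMR replicate 1 gave 4 calls (Riok3, Pde10a and 2 loci without a symbol), and leaving out MWTMR replicate 7 gave 3 (Riok3, Pde10a and Phf20l1). Leaving out any other single library gave 0 calls, and leaving out the 3 libraries of lowest weight together (MWT replicate 1, MWTMR replicates 4 and 11) gave 43.

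Riok3 encodes a RIO kinase, an atypical protein kinase family involved in the maturation of the small ribosomal subunit. It lies on GRCm38 chromosome 18 at 12126091 to 12157367. In MWT it ranged from 183 to 253 FPKM with a median of 195, and in MWTMR from 203 to 272 with a median of 237. The 253 was MWT replicate 1, and the other 10 MWT libraries lay between 183 and 210. All 10 MWTMR libraries were above the MWT median, but the groups overlapped. The mean was 200 ± 19 in MWT (SD, n = 11) and 238 ± 20 in MWTMR (SD, n = 10). This is a log2 difference of 0.25 ± 0.051 (95% interval 0.15 to 0.35, limma adjusted p = 0.0901). Without MWT replicate 1, the highest of its group, the difference could only widen, and it was 0.28 (limma adjusted p = 0.00132).

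Pde10a encodes a phosphodiesterase that breaks down cAMP and cGMP and is best known from the medium spiny neurons of the striatum. It lies on chromosome 17 at 8525187 to 8986648. In MWT its level ran from 9.13 to 16.6 FPKM with a median of 10.2, and in MWTMR from 10.2 to 19.3 with a median of 16.1. The MWTMR libraries fell into separate ranges: replicates 1, 7, 9 and 11 had 10.8, 10.8, 10.2 and 11.1 FPKM. Replicates 3, 4, 5, 6, 8 and 10 had 16.3, 18.6, 19.3, 17.3, 15.8 and 16.7 FPKM. MWT replicate 1, at 16.6, lay within the upper range, and the other 10 MWT libraries reached at most 11.4. The means were 10.7 ± 2.1 (SD, n = 11) and 14.7 ± 3.6 (SD, n = 10), a log2 difference of 0.41 ± 0.090 (95% interval 0.23 to 0.58, limma adjusted p = 0.114). Without MWT replicate 1, the highest of its group, the difference could only widen, and it was 0.47 (limma adjusted p = 0.00405).

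Striatal markers are given beside Pde10a, since tissue next to the hippocampus can enter a dissection. The summed level of the 18 measured members of the striatal list was 445 to 742 FPKM in MWT and 538 to 681 in MWTMR. Of the defining striatal markers none was at 0. Ppp1r1b, which encodes DARPP-32, had means of 14.0 ± 2.7 and 13.9 ± 2.5 FPKM, Drd1, the D1 dopamine receptor, 0.467 ± 0.23 and 0.614 ± 0.26, and Adora2a, an adenosine receptor, 1.01 ± 0.25 and 1.11 ± 0.32. Penk, the enkephalin precursor, had 28.5 ± 21 and 24.1 ± 22 FPKM, and Adcy5, an adenylyl cyclase, 36.7 ± 12 and 34.3 ± 13. Drd2, at 0.489 and 0.549 FPKM, was below the filter and not tested. In the striatal list 14 of 18 members had a positive difference (median 0.06), against 10501 of 21286 over all loci. At an unadjusted p under 0.05, 2 were higher in MWTMR and 0 lower, against 4.19% and 2.63% over all loci. These were Pde10a itself and Gng7, a G protein gamma subunit (34.9 ± 16 and 48.9 ± 9.1 FPKM, adjusted p = 0.553). Gng7 was at 3.05 and 5.01 FPKM in MWT replicates 1 and 5. The other MWT libraries had 35.1 to 52.2 FPKM, which overlaps the 35.7 to 66.5 of MWTMR. In bulk tissue, fewer cells of a type and less RNA per cell cannot be told apart.

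**Figure D1:**
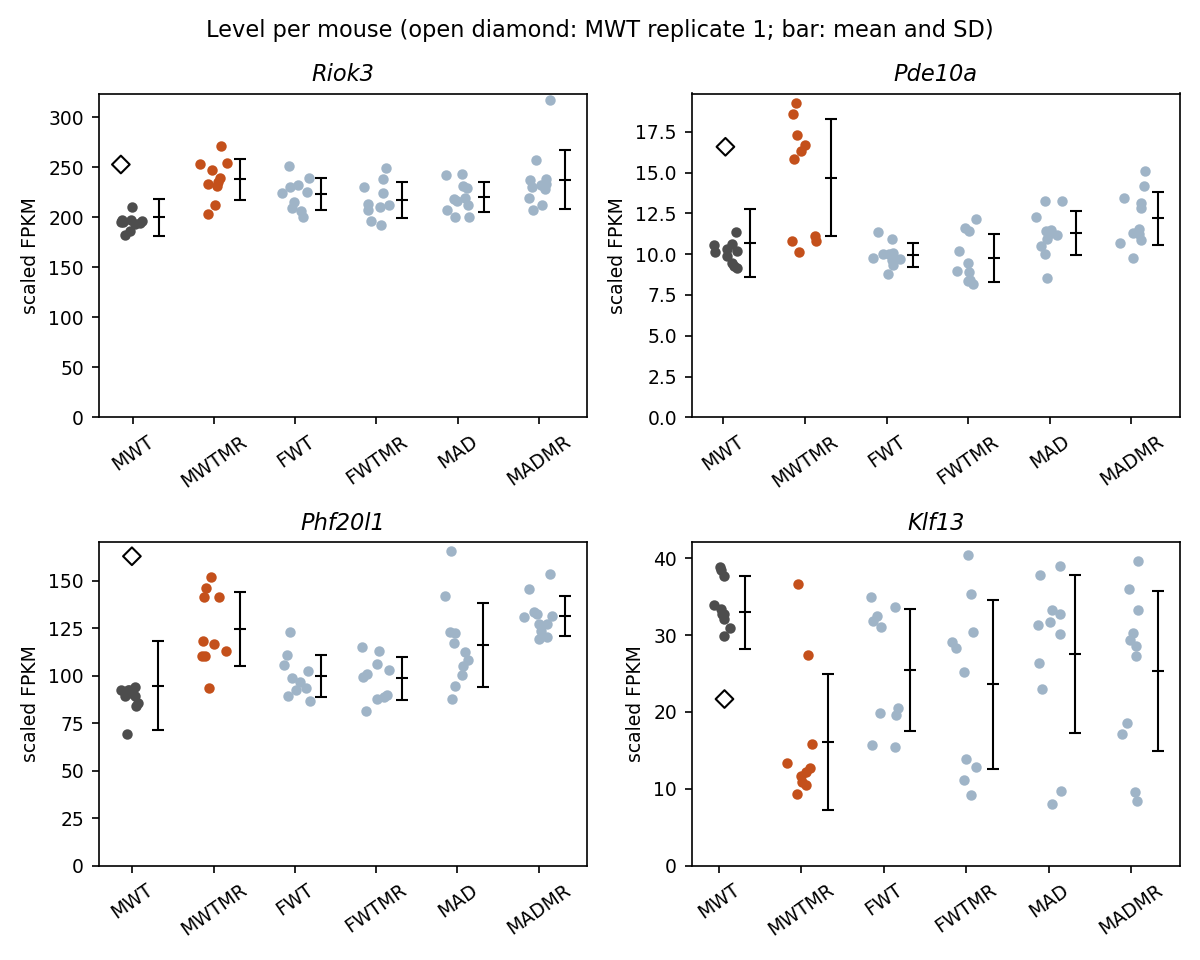
Scaled FPKM (y axis, from 0) of Riok3, Pde10a, Phf20l1 and Klf13 in each mouse of 6 groups (x axis), with the mean and SD of each group as a bar and MWT replicate 1 as an open diamond. MWTMR libraries of Pde10a sit at 10.2 to 11.1 or at 15.8 to 19.3 FPKM, and the diamond lies at 16.6, away from the other MWT libraries.

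None of the 20 genes of smallest p, which include Riok3 and Pde10a, passed the threshold. Of these 20, 17 had a higher mean in MWTMR and 3 a lower one. For 15 of them all 10 MWTMR libraries lay on 1 side of the MWT median. The genes were picked by p from these same values, which favours such positions, and no conclusion is drawn from that count. Ints6, a subunit of the Integrator complex that processes small nuclear RNAs and ends transcription, averaged 4.51 ± 2.2 FPKM in MWT and 8.58 ± 2.1 in MWTMR (log2 difference 0.85 ± 0.19, adjusted p = 0.114). Ddx26b, a close relative of Ints6, had 65.4 ± 22 and 87.6 ± 15 FPKM (0.46 ± 0.12, adjusted p = 0.272). Reads of such relatives can be shared between them.

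Phf20l1, a reader of methylated lysine, ranged from 69.6 to 163 FPKM in MWT (median 90.8) and from 93.8 to 152 in MWTMR (median 118). The 163 was again MWT replicate 1, and the other MWT libraries reached at most 94.0. Jmjd1c, a JmjC-domain protein related to histone demethylases, had 39.4 ± 8.6 and 50.4 ± 7.1 FPKM, a difference of 0.37 ± 0.083 (adjusted p = 0.116). Atad2b, a bromodomain ATPase, had 4.39 ± 0.65 and 5.47 ± 0.87 FPKM.

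Klf13, a Krüppel-like zinc finger factor, had the largest negative difference among the 20. Its MWT libraries ranged from 21.7 to 38.8 FPKM with a median of 32.8, and its MWTMR libraries from 9.38 to 36.6 with a median of 12.5. In MWTMR 8 libraries lay between 9.38 and 15.9 FPKM, while replicates 9 and 11 were at 36.6 and 27.4, within the MWT range. The log2 difference was -1.11 ± 0.26 (95% interval -1.62 to -0.60, adjusted p = 0.143). Atp5k, a small subunit of mitochondrial ATP synthase, had 22.1 ± 3.2 and 16.9 ± 3.1 FPKM (-0.37 ± 0.098, adjusted p = 0.272).

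Other genes of the 20 had higher means in MWTMR. Cacna1d, the L-type calcium channel CaV1.3, had 18.1 ± 3.5 and 23.8 ± 3.8 FPKM, and Cers4, a ceramide synthase, 143 ± 16 and 190 ± 34. Eif2s3y, a Y-linked subunit of eIF2, had 890 ± 129 and 1054 ± 133 FPKM. Adamts17, a secreted metalloprotease, had 7.86 ± 2.7 and 12.9 ± 3.4, and Pus10, a pseudouridine synthase, 14.9 ± 2.9 and 19.1 ± 3.4. Fnbp4, the Paxbp1 locus, Zfp560, Armc2 and Cep295 completed the group, with adjusted p-values from 0.219 to 0.272. Without MWT replicate 1, 18 of the 20 passed the threshold, and the exceptions were Armc2 and Cers4. For Riok3, Pde10a, Phf20l1 and Klf13 that library was the MWT extreme on the MWTMR side. Leaving it out could only widen those differences, and no conclusion is drawn from that count.

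**Figure D2:**
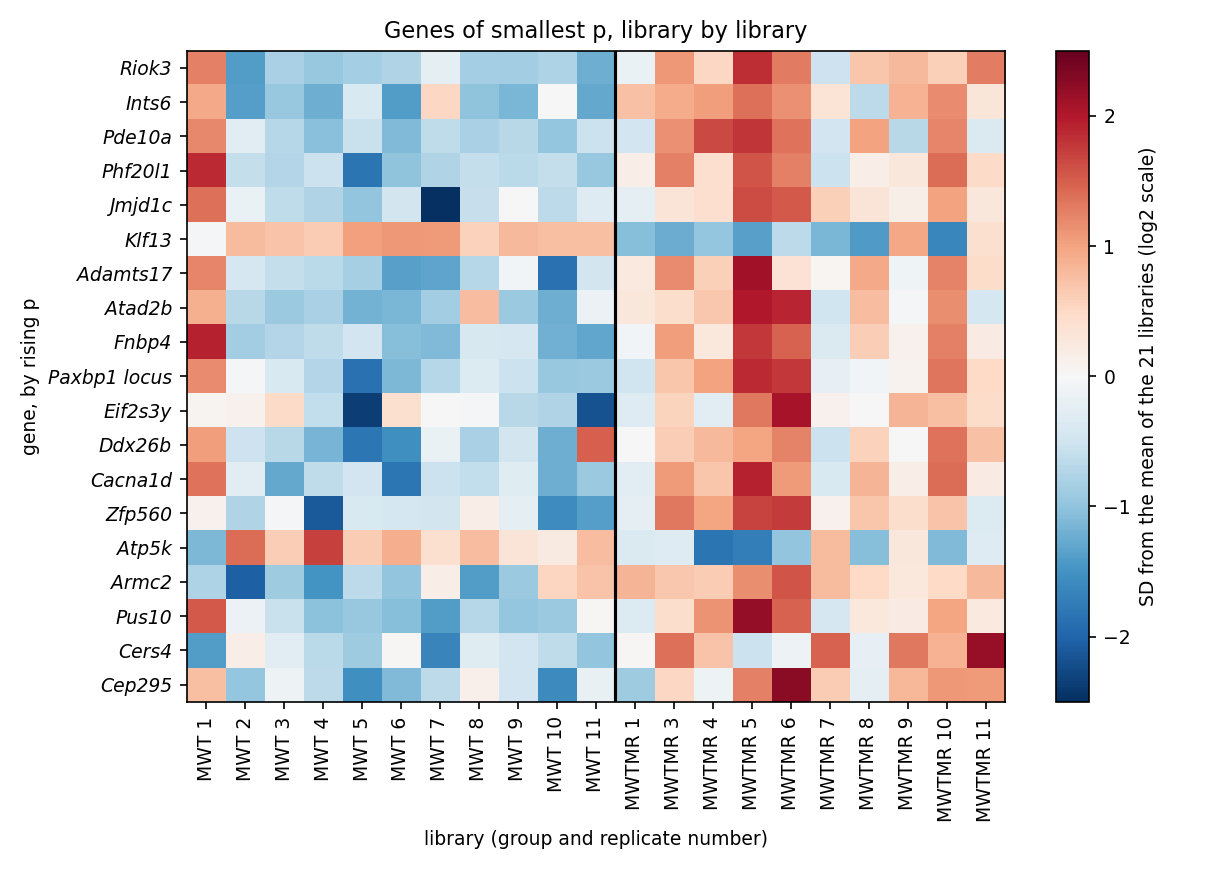
Level of 19 of the 20 genes of smallest p (rows) in each MWT and MWTMR library (columns), as the number of SD above (red) or below (blue) the mean of the 21 libraries on the log2 scale. MWT replicate 1 is red for most genes, like MWTMR replicates 3, 5, 6 and 10, while MWTMR replicates 1 and 7 are pale.

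MWT replicate 1 stood with the Pde10a-high MWTMR libraries in a further measure. For each library, a transcript-length contrast was taken as the median centred log2 level of 911 genes with transcripts of at least 4500 bases minus that of 1404 genes with transcripts of at most 1200 bases. The length of a gene was the median over its annotated protein-coding transcript models. It need not be that of the transcript expressed here (Slc6a6 counts as 624 bases and Klf13 as 599). The contrast ranged from -0.17 to 0.24 in MWT (median 0.02) and from -0.02 to 0.32 in MWTMR (median 0.16). MWT replicate 1 had the 0.24, and the other MWT libraries reached at most 0.08. Above 0.1 lay 6 of 10 MWTMR libraries, replicates 3, 4, 5, 6, 8 and 10, which are the libraries of the upper Pde10a range, and 1 of 11 MWT libraries. The means differed by 0.12 (two-sided permutation test with 100000 resamples, p = 0.0271, adjusted p = 0.0361 over 4 tests). Without MWT replicate 1 they differed by 0.14 (adjusted p = 0.0356 by the same test). That library has the highest contrast of its group, so leaving it out could only widen the difference. No conclusion is drawn from that value. In control females the means were -0.02 on standard and -0.09 on restricted feed (adjusted p = 0.0361), and in AD males 0.11 and 0.18 (adjusted p = 0.178). The labels give no batch, date or RNA quality for any library, so whether feed or sample handling goes with the contrast cannot be told apart.

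**Figure D3:**
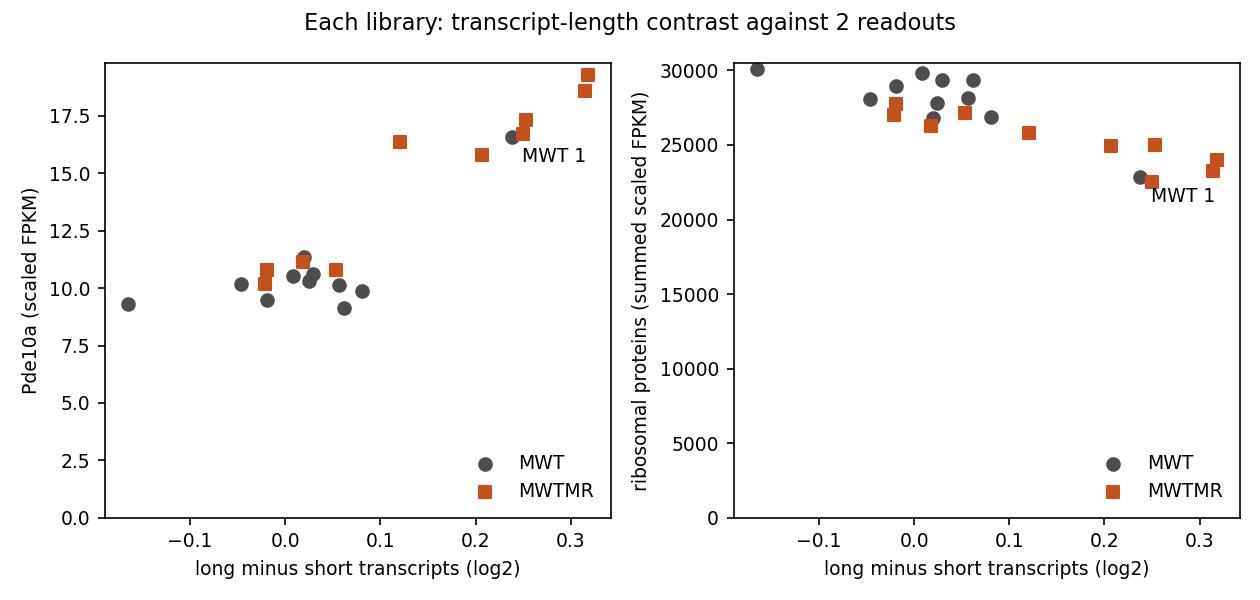
Pde10a (left) and the summed cytosolic ribosomal proteins (right), both in scaled FPKM from 0, against the transcript-length contrast (log2) of each MWT (circles) and MWTMR (squares) library. MWT replicate 1, at a contrast of 0.24, lies among the MWTMR squares with Pde10a at 15.8 to 19.3 FPKM.

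Bins of genes by length include the long and short genes that define the contrast, so a gradient across them is no separate result. In 8 bins of 10583 genes by transcript length, the median log2 difference went from -0.03 in the shortest bin (median 700 bases) to 0.08 in the longest (median 6032 bases). Unadjusted calls went with it: 3.40% of the shortest bin were higher in MWTMR and 9.67% lower, against 10.6% higher and 1.28% lower in the longest. Over these genes, which are not independent replicates, Spearman's correlation of the difference was 0.26 with transcript length and -0.23 with G and C content. With the contrast as a covariate, Riok3 differed by 0.23 and Cers4 by 0.40, close to their values without it, whereas Pde10a differed by 0.25 and Phf20l1 by 0.31. For 19 of the 20 genes of smallest p the value moved toward 0, the exception being Cers4, and for Atp5k by more than 50%. No gene passed the threshold with the covariate, the smallest adjusted p being 0.44, and 579 loci were higher (2.72%) and 344 lower (1.62%) at an unadjusted p under 0.05. The covariate was computed from the same libraries and takes away any feed difference that runs with length.

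**Figure D4:**
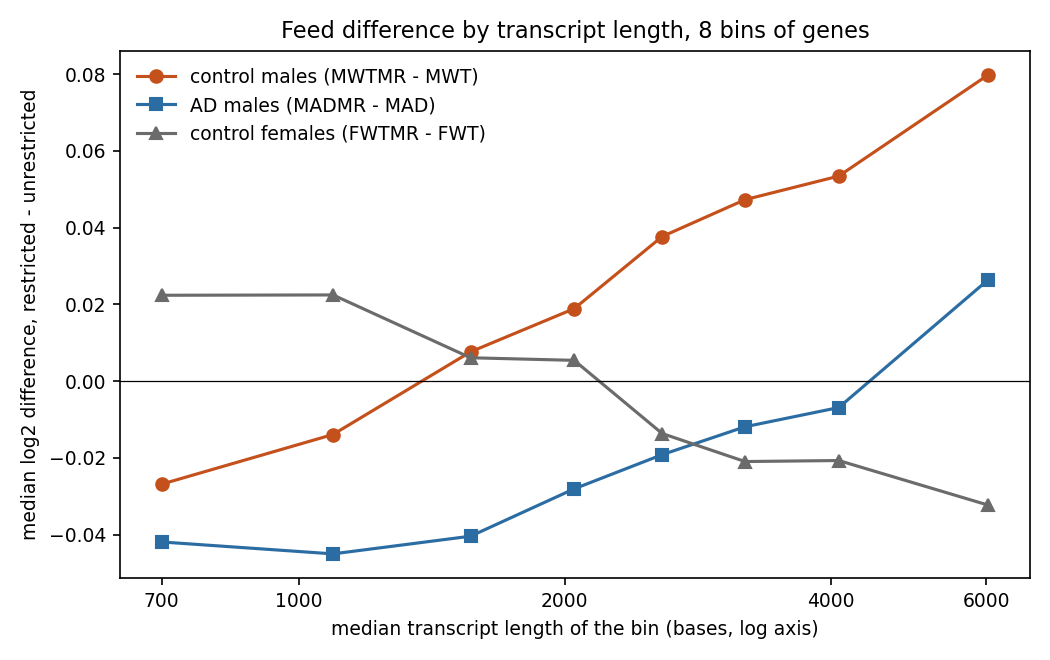
Median log2 difference between restricted and standard feed (y axis) in 8 bins of genes by transcript length (x axis, bases, log axis), for control males, control females and AD males. In control males the median runs from -0.03 to 0.08 with length, and in control females from 0.02 to -0.03.

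Genes of methionine metabolism showed no difference past the threshold. In the list of the methionine cycle, one-carbon and polyamine metabolism, 0 of 28 measured members had even an unadjusted p under 0.05. Over all loci 4.19% were higher and 2.63% lower at that p. The median log2 difference of the list was 0.01, against -0.002 over all loci tested. Mat2a, the S-adenosylmethionine synthetase of brain, had 8.85 ± 0.87 FPKM in MWT and 9.35 ± 1.5 in MWTMR (95% interval of the log2 difference from -0.31 to 0.43). Its lowest, median and highest values were 7.43, 9.21 and 9.9 in MWT and 7.38, 8.78 and 12.2 in MWTMR, so the groups overlapped. The smallest p in the list belonged to Ahcyl2, a relative of the enzyme that hydrolyses S-adenosylhomocysteine, with 376 ± 78 and 431 ± 81 FPKM (0.20 ± 0.13, adjusted p = 0.863).

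Among transsulfuration, hydrogen sulfide and taurine genes, 3 of 16 were higher and 1 lower at an unadjusted p under 0.05, with a median of 0.01, against 4.19% higher and 2.63% lower over all loci. With the length covariate 1 was higher and 0 lower. Slc6a6, the taurine transporter, ranged from 27.6 to 62.6 FPKM in MWT (median 32.3) and from 33.7 to 50.7 in MWTMR (median 41.2). The 62.6 was MWT replicate 1, so leaving that library out could only widen the difference. The difference was 0.31 ± 0.099 (95% interval 0.11 to 0.51, adjusted p = 0.40), 0.40 with an adjusted p of 0.0275 without that library, and 0.14 with the length covariate. The Ikzf4 locus, whose rows join it to Suox, the sulfite oxidase gene, had 16.4 ± 1.5 and 18.9 ± 1.8 FPKM. Gclc, the rate-limiting enzyme of glutathione synthesis, had 21.8 ± 4.0 and 24.97 ± 2.7 FPKM (adjusted p = 0.619), and Tst, a thiosulfate sulfurtransferase, 10.3 ± 2.0 and 8.69 ± 1.1 (adjusted p = 0.715). Cbs and Cth, the transsulfuration enzymes themselves, had 12.8 ± 3.1 and 11.0 ± 3.6 FPKM, and 0.880 ± 0.14 and 0.961 ± 0.27.

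The ATF4 list did not separate the groups. The median difference of its 31 measured members was -0.04. At an unadjusted p under 0.05, 1 was higher and 0 lower, against 4.19% and 2.63% over all loci. That member was Slc38a2, a methionine and alanine transporter, at 34.1 ± 6.9 and 39.6 ± 7.3 FPKM (0.21 ± 0.10, adjusted p = 0.719). Asns, whose promoter element is shown among the sequences, ranged from 57.3 to 95.04 FPKM in MWT (median 72.4) and from 59.7 to 93.1 in MWTMR (median 75.2). Its difference was 0.05 ± 0.080, with a 95% interval from -0.11 to 0.21. Slc7a11 had 4.71 ± 1.1 and 4.45 ± 1.0 FPKM (-0.06 ± 0.16), and Chac1, a glutathione-degrading enzyme that ATF4 induces, 6.62 ± 1.5 and 6.39 ± 1.3 (-0.04 ± 0.10). Eif2ak4, the GCN2 sensor itself, had 10.1 ± 1.8 and 11.2 ± 1.1 (0.15 ± 0.074, adjusted p = 0.739). In the FGF21 and insulin-like growth factor list, 0 of 17 members were higher and 1 lower, against the same 4.19% and 2.63%. The lower member was Igfbp7, a binding protein (9.26 ± 2.4 and 7.53 ± 1.1 FPKM). Fgf21 was below the filter and not tested.

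Ribosomal protein genes had lower values together. Of 53 measured cytosolic ribosomal proteins, 51 had a negative log2 difference, against 10785 of 21286 over all loci. At an unadjusted p under 0.05, 23 were lower and 0 higher, against 2.63% lower over all loci. The median difference was -0.15, and none passed the adjusted threshold. Rpl11 had 388 ± 23 and 338 ± 31 FPKM (-0.20 ± 0.064, adjusted p = 0.402), and Rps15 635 ± 56 and 541 ± 56 (-0.23 ± 0.079, adjusted p = 0.44). The summed level ranged from 22825 to 30114 FPKM in MWT and from 22548 to 27763 in MWTMR, and the lowest MWT sum was that of replicate 1. These transcripts are short, with a median of 770 bases. With the length contrast as a covariate the median was 0.003, and 0 of 53 had an unadjusted p under 0.05. Nuclear genes of the respiratory chain, also short at a median of 745 bases, had 7 of 34 lower and 0 higher, with a median of -0.09 that became 0.002 with the covariate. Cox5b, a subunit of complex IV, had 102 ± 9.6 and 89.4 ± 9.3 FPKM (-0.19 ± 0.058, adjusted p = 0.333).

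Ribosome biogenesis factors had a positive median with and without the covariate. Of 25 measured members, Riok3 included, 22 had a positive difference (median 0.08), against 10501 of 21286 over all loci. At an unadjusted p under 0.05, 5 were higher and 0 lower, against 4.19% higher over all loci. With the length contrast as a covariate the median was 0.09, and 6 were higher and 0 lower, against 2.72% higher over all loci. Nop58, a core protein of box C/D small nucleolar ribonucleoproteins, had 23.4 ± 1.5 and 26.3 ± 1.6 FPKM (0.16 ± 0.054, adjusted p = 0.415). Riok1, another RIO kinase, had 6.29 ± 0.36 and 7.09 ± 0.83 (0.15 ± 0.056, adjusted p = 0.575). The Wdr43 locus, a factor of the small-subunit processome joined here with a small nucleolar RNA, had 11.8 ± 1.7 and 13.9 ± 1.5 (0.22 ± 0.061, adjusted p = 0.283).

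The list of S-adenosylmethionine-dependent methyltransferases, which also holds demethylases that remove the same marks, had 7 of 36 members higher and 0 lower at an unadjusted p under 0.05, and a median of 0.12. Over all loci 4.19% were higher and 2.63% lower. The median transcript of the list has 4139 bases, and with the length covariate the median difference was 0.06 and 0 members had an unadjusted p under 0.05. Dnmt3a, a de novo DNA methyltransferase, had 1.995 ± 0.26 and 2.37 ± 0.35 FPKM (0.17 ± 0.058, adjusted p = 0.475). Setd2, the enzyme that trimethylates lysine 36 of histone H3, had 341 ± 40 and 387 ± 27 (0.19 ± 0.068, adjusted p = 0.517). Mitochondrial biogenesis genes had 4 of 19 higher and 0 lower, among them Tfb1m, a mitochondrial ribosomal RNA methyltransferase (5.47 ± 2.7 and 8.06 ± 0.92 FPKM), and Nrf1 (38.5 ± 3.7 and 44.3 ± 7.3), against 4.19% higher over all loci. With the covariate 2 were higher, and the list's median went from 0.03 to -0.01. In the mTOR and energy sensing list the single unadjusted call was Rictor, a component of mTOR complex 2 (15.6 ± 4.6 and 21.5 ± 5.6 FPKM, 0.43 ± 0.13), at 0.15 with the covariate. In the cyclic nucleotide list, 3 of 32 were higher and 2 lower, against 4.19% and 2.63% over all loci, with Pde10a, the cAMP-specific Pde7a (14.8 ± 3.1 and 19.9 ± 3.4 FPKM) and the Gnal locus higher, and Adcy8, an adenylyl cyclase, among the lower (27.9 ± 7.3 and 21.4 ± 6.6). With the covariate 3 were higher and 4 lower, and the median went from 0.04 to -0.02.

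**Figure D5:**
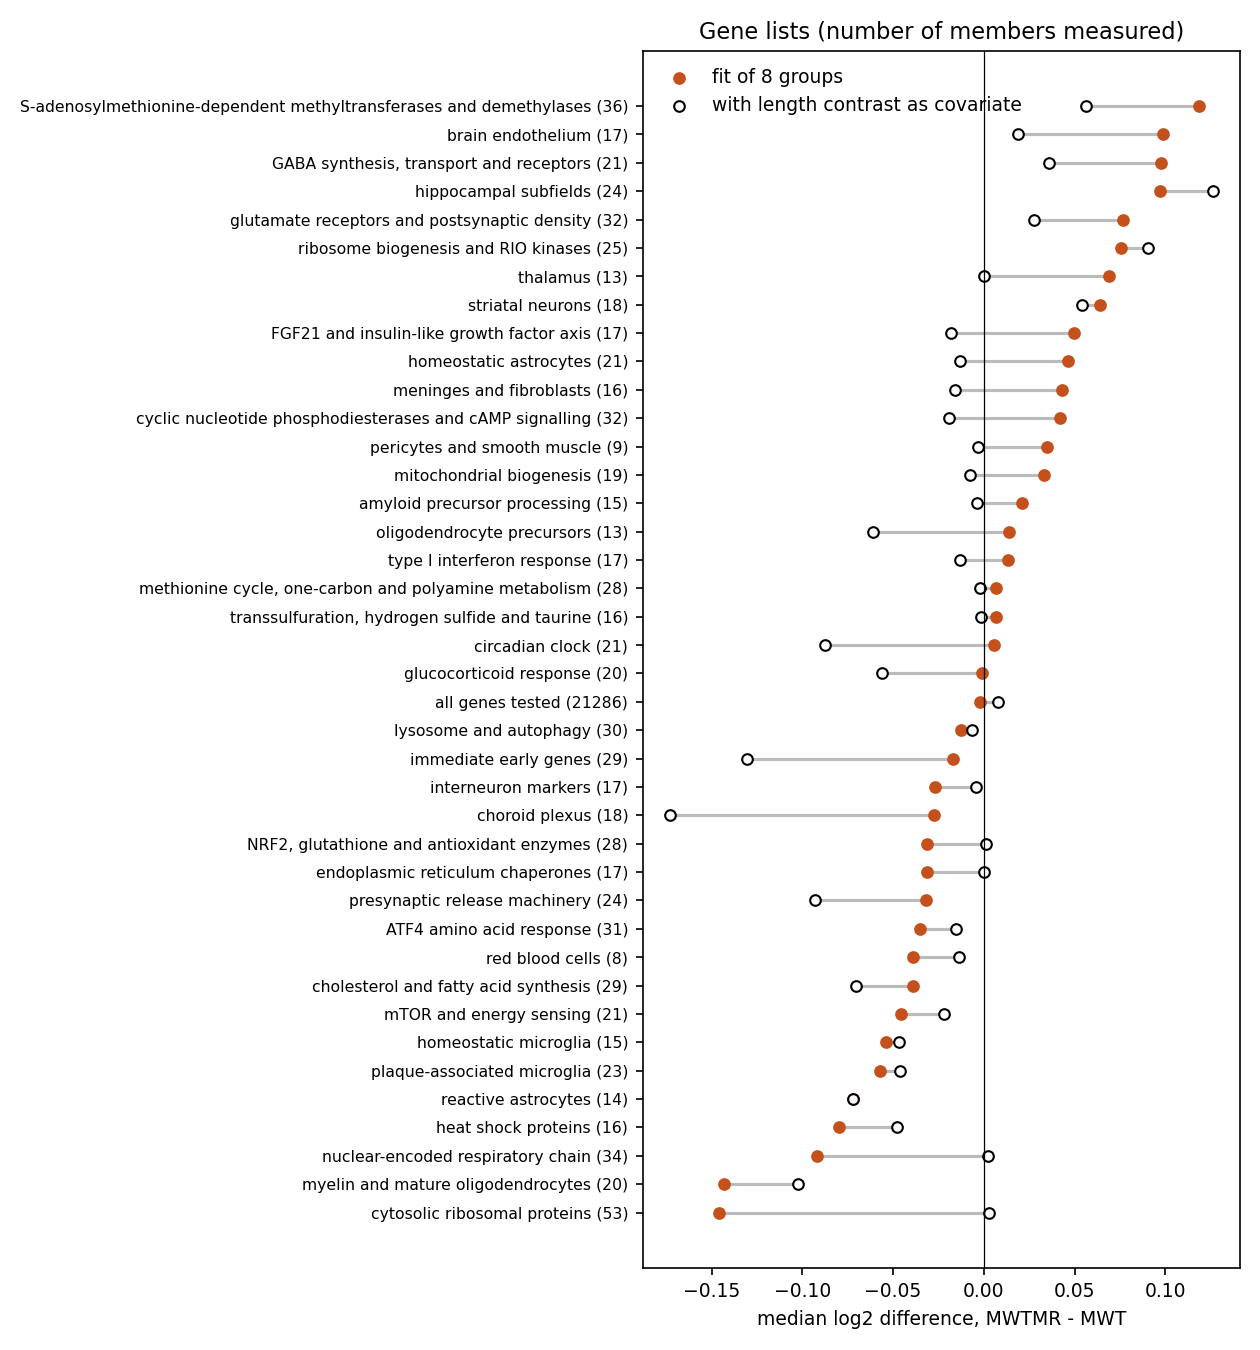
Median log2 difference (x axis) of each gene list (y axis, with the number of members measured) in the fit of 8 groups (filled) and with the length contrast as a covariate (open). Cytosolic ribosomal proteins move from -0.15 to 0.003, and ribosome biogenesis factors stay at 0.08 and 0.09.

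Lists of other cells and tissue had no member past the adjusted threshold. Over all loci 4.19% were higher and 2.63% lower at an unadjusted p under 0.05. With the length covariate these shares were 2.72% and 1.62%. In the oligodendrocyte precursor list 2 of 13 were higher and 1 lower at an unadjusted p under 0.05, and with the length covariate 0 in either direction. These were Ptprz1 (27.9 ± 12 and 38.9 ± 12 FPKM), the proteoglycan Vcan (19.7 ± 3.1 and 24.5 ± 6.5) and, lower, C1ql1 (3.09 ± 0.41 and 2.71 ± 0.47). Ptprz1 stood at 12.8 to 14.7 FPKM in MWT replicates 2, 4, 7 and 11 and at 12.7 in MWTMR replicate 11. All other MWT and MWTMR libraries had 29.9 to 54.4 FPKM of it. Of 21 homeostatic astrocyte genes 2 were higher, Slc4a4 and Gjb6, and 0 with the covariate. Choroid plexus, thalamus, meninges, pericytes, microglia, interferon, glucocorticoid and clock lists had 0 in either direction. Choroid plexus content varied widely within each group, from 196 to 2896 summed FPKM in MWT and from 227 to 2299 in MWTMR. Ttr, the transthyretin gene of that tissue, ranged from 1.34 to 861 FPKM in MWT and from 2.21 to 836 in MWTMR. In the myelin list 18 of 20 members had a negative difference (median -0.14), against 10785 of 21286 over all loci. At an unadjusted p under 0.05, 0 were higher and 1 lower. Mbp, myelin basic protein, had 4196 ± 1423 and 4041 ± 1320 FPKM. The SD of the list's mean level among MWT libraries was 0.42 on the log2 scale, larger than that median.

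Some loci had libraries at levels far apart, and these were picked after their values were seen. Plppr4, a phospholipid phosphatase related protein of glutamatergic synapses, stood at 0.877 to 3.11 FPKM in 7 MWT libraries and at 195 to 240 in the other 4, while all 10 MWTMR libraries had 196 to 272. The log2 difference was 4.09 ± 1.1 (adjusted p = 0.272). Low libraries were present in other groups too, 3 of 10 in FWT, 6 of 10 in FWTMR, 0 of 11 in MAD and 2 of 11 in MADMR. Cbfa2t3, a transcriptional corepressor, was under 10 FPKM in 8 of 11 MWT and 0 of 10 MWTMR libraries (1.85 ± 0.51, adjusted p = 0.283), and in 4 of 10 FWT, 7 of 10 FWTMR, 4 of 11 MAD and 5 of 11 MADMR libraries. Nr4a3, an orphan nuclear receptor induced by neuronal activity, was under 50 FPKM in 1 of 11 MWT and 5 of 10 MWTMR libraries (-1.67 ± 0.47, adjusted p = 0.283). It was so in 0 of 10 FWT, 0 of 10 FWTMR, 3 of 11 MAD and 0 of 11 MADMR libraries. Klf13 was under 20 FPKM in 0 of 11 MWT and 8 of 10 MWTMR libraries, and in 4 of 10 FWT, 4 of 10 FWTMR, 2 of 11 MAD and 4 of 11 MADMR libraries. Transcript assembly can assign the reads of a gene to different loci in different libraries, and its part in these values was not tested.

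The same feed contrast in the other groups gave other values for the lead genes. Riok3 differed by -0.04 ± 0.052 in control females and by 0.10 ± 0.049 in AD males, and Pde10a by -0.03 ± 0.092 and 0.10 ± 0.088. Among the 20 genes of smallest p, the sign was that of control males for 16 in AD males, and for 10 in control females of the 19 that could have one, since the Y-linked Eif2s3y was at 0 there. The difference between the feed effects of control males and control females was 0.29 for Riok3 (95% interval 0.15 to 0.44, adjusted p = 0.154) and 0.44 for Pde10a (0.18 to 0.70, adjusted p = 0.239). Against AD males it was 0.15 (0.01 to 0.29) and 0.31 (0.06 to 0.56), each with an adjusted p of 0.9997. Both tests use the same MWT and MWTMR libraries.

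No gene passed either test of a difference between feed effects by limma. By sex, 0 of 21286 loci were called (0%), with 1644 at an unadjusted p under 0.05 and a smallest adjusted p of 0.0817. That value was shared by Chd1, a chromatin remodeller, and the predicted genes LOC100862466 and Gm4335. Chd1 differed by 0.26 ± 0.071 in control males and by -0.23 ± 0.073 in control females. By genotype, 0 were called (0%), with 749 at an unadjusted p under 0.05 and a smallest adjusted p of 0.244, for 8430408G22Rik. That gene, Depp1 in RefSeq, and Sgk1, a kinase that glucocorticoids induce, had differences of 0.22 ± 0.12 and 0.11 ± 0.18 in control males and of -0.55 ± 0.12 and -0.88 ± 0.17 in AD males. Yaf2, a Polycomb-associated protein, had -0.39 ± 0.22 and 0.84 ± 0.22. Without MWT replicate 1 the test by sex called 13 loci, while that by genotype called 0.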

How the data were processed

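Hippocampal total RNA of 85 mice in 8 groups was sequenced on a BGI-500 platform after phenol-chloroform extraction, per the labels' protocols. The authors deposited 1 table of FPKM values. The submitters' processing notes name Trimmomatic 0.38, HISAT2, StringTie 1.3.4d and the build GRCm38.p6, and the table was used as deposited. Of its 56090 rows, 14100 have no symbol and 1713 join several, and rows of an equal symbol were summed to 53895 loci. Libraries were divided by median-of-ratios factors (0.880 to 1.10), and a locus was kept where 10 or more libraries reached 1 FPKM. FPKM + 1 was taken to log2 and fitted with limma 3.58.1 in R 4.3.3, with 8 group means, a trend of variance on level, a robust prior and Benjamini-Hochberg adjustment within each comparison, at a threshold of 0.05. Fold differences on this scale understate the change of low genes. Depth is unknown, so no count test was run.

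Transcript length and G and C content were medians per symbol over GENCODE vM21 protein-coding transcripts (10583 of 12529 single-symbol loci, 84.5%). Positions and promoter windows came from RefSeq tables of GRCm38.p6. Tested on simulated data for MWTMR minus MWT over 21286 loci, the fit recovered 51 of 100 changes of 0.5 and 87 of 100 changes of 1 on the log2 scale, with 10 false calls. The simulation drew independent noise for each gene and planted changes only in genes above a set mean level. It held no length contrast and no library of lower weight, so these counts do not carry over to the real libraries. The groups, lists and tests were chosen with earlier results of these data known. Genes named are the 20 of smallest p with a symbol that is not a predicted gene or clone, at a mean of at least 1 FPKM, up to 4 of each list by p, the 3 of smallest p in each test between feed effects, and genes always given, such as Mat2a, Asns, Ttr and Mbp. The length contrast with its permutation tests, the length covariate, the fit on loci with a symbol only and the fit without the 3 libraries of lowest array weight were added after the data were seen. Of the 20 genes of smallest p, 1 counts in the totals and is not reported here.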

Additional observations from a re-analysis of the deposited data

Results flagged for a closer look

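In 8 of 105 named genes 1 MWTMR library stood away from the other 9 by more than 0.466 of the whole range of the group, a gap that chance gives in about 1 of 20 groups. Ints6 in replicate 8 was at 4.193 FPKM, with the next library at 6.829. Rpl18 in replicate 1 was at 29.39 FPKM, above the next at 24.92. Ocln, a tight junction gene, was at 0.4985 FPKM in replicate 7, with the next at 0.9981. Fibcd1, a CA1 marker, was at 216.8 FPKM in replicate 4, above the next at 115.8. Replicate 11 was the low library for the other 4. Cth, cystathionine gamma-lyase, was at 0.4145 against 0.8266 FPKM, and the Camk2a locus, a kinase of excitatory synapses, at 986.6 against 1518 FPKM. Reln, the reelin gene of Cajal-Retzius cells and interneurons, was at 4.967 against 16.84 FPKM. Ptprz1, a phosphatase of oligodendrocyte precursors and astrocytes, was at 12.69 against 31.90 FPKM. For Ptprz1 such a level is not particular to that library, since MWT replicates 2, 4, 7 and 11 had 12.8 to 14.7 FPKM.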

How the results depend on the processing

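The count of 0 loci called for feed in control males held for the other pseudocount, both other filters, both other scalings, no trend, the tissue covariates, only the groups compared, unsummed rows, loci with a symbol only and the length covariate. It was 228 with array weights (172 higher, 56 lower), of which 74 are among the 76 called without MWT replicate 1, and 43 without the 3 libraries of lowest array weight. Leaving out 1 library at a time gave 0 to 76. For the feed effect by sex, array weights gave 88, the length covariate 3, the fit without the 3 libraries of lowest weight 5, and leaving out 1 library 0 to 13. For the feed effect by genotype, array weights gave 1 (Yaf2), the tissue covariates 1 and only the groups compared 1 (both 8430408G22Rik), and leaving out 1 library 0 to 1. The 3 loci called by sex with the length covariate were Gm36845, LOC108169023 and 1 locus without a symbol. No label says that equal replicate numbers pair the mice, and they were not treated as pairs. Over 10 shared numbers the correlation of deviations ran from -0.039 to 0.24, with 2 above 0.1. For 2 libraries the best correlation was with their own number. These values cannot decide whether mice were paired. With the number as a replicate block, 0 loci were called in each of the 3 comparisons.

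Of 105 named genes over 35 alternatives, 8 changed sign, none of them called in the main comparison. Ttr went from -0.08 to 0.14 with array weights and 0.58 without the 3 libraries of lowest weight, and ran from -0.54 to 0.38 when 1 library was left out, with reversed values from 0.08. Mbp was 0.0943 without those 3 libraries and ran from -0.14 to 0.0582, with reversed values from 0.03. With the length covariate Tnfrsf25 was 0.071, Cth -0.0115 and Chac1 0.00351, the last running from -0.099 to 0.0102 with 1 library left out. Ppp1r1b was 0.00928 on FPKM as deposited, 0.00414 at equal totals, 0.0335 with array weights, 0.0678 without the 3 libraries of lowest weight and -0.065 to 0.035 with 1 library left out, with reversed values from 0.00225. The Ddx3y locus was 0.0030 on FPKM as deposited, 0.0131 with the replicate block and -0.10 to 0.10 with 1 library left out, with reversed values from 0.006. The Prnp locus was -0.0655 with the length covariate and -0.00683 to 0.0694 with 1 library left out. FPKM give no counts, so what depth limits is unknown, and low loci such as Fgf21 were not tested.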

Other observations

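Neuronal and vascular lists not described above had no member past the adjusted threshold. Of 21 genes of GABA synthesis, transport and receptors, 19 had a positive difference (median 0.10, and 0.04 with the length covariate), with 0 at an unadjusted p under 0.05. Of 24 hippocampal subfield markers, 17 were positive (median 0.10, and 0.13 with the covariate), also with 0. Over all 21286 loci, 10501 had a positive difference. In the interneuron list 2 of 17 were lower and 0 higher at an unadjusted p under 0.05, against 2.63% lower over all loci. With the covariate 4 were lower, against 1.62% over all loci. Pvalb, the calcium buffer of fast-spiking interneurons, had 59.2 ± 15 FPKM in MWT (SD, n = 11) and 46.4 ± 5.7 in MWTMR (SD, n = 10), with all 10 MWTMR libraries below the MWT median (log2 difference -0.32 ± 0.10, adjusted p = 0.403 by limma). The other was Reln, whose lowest MWTMR library is described above. In the brain endothelium list 2 of 17 were higher at an unadjusted p under 0.05, against 4.19% over all loci. These were Abcg2, an efflux transporter (1.35 ± 0.13 and 1.58 ± 0.33 FPKM), and Ocln. The list median was 0.10, and 0.02 with the covariate. With it 0 were higher and 1 lower, against 2.72% and 1.62% over all loci.

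Among the 76 loci called without MWT replicate 1, 67 have a symbol, and the 59 with a transcript length had a median of 2707 bases, against 2305 over all genes with one. Besides the named genes they include Tfrc, the transferrin receptor (34.9 ± 12 and 43.4 ± 7.9 FPKM, adjusted p = 0.424 in the full comparison), Kdm5d, a Y-linked histone demethylase (30.7 ± 8.5 and 37.8 ± 7.8, adjusted p = 0.401), and, among the lower, Atp5d, a subunit of ATP synthase (111 ± 15 and 87.5 ± 13, adjusted p = 0.272), Smdt1, a regulator of the mitochondrial calcium uniporter (193 ± 20 and 159 ± 20, adjusted p = 0.283), and Uqcrh, a subunit of complex III (22.9 ± 2.5 and 19.5 ± 2.0, adjusted p = 0.321). These genes were chosen after their values were seen.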
